A study of Caenorhabditis elegans with 2 samples.

Results

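Genes that are annotated as non-coding RNA without a more exact class, together with long intergenic and antisense non-coding genes, make up 8050 of the 46890 nuclear genes in the Caenorhabditis elegans annotation used here, and are called members below. They are all genes of biotype ncRNA (7756), lincRNA (194) or antisense RNA (100) on the 6 nuclear chromosomes. The rule also admits biotype lncRNA, which no nuclear gene of this annotation carries. The 8 genes of RNase P, RNase MRP, signal recognition particle and Y RNA, whose products have known functions, were left out. The members are short, with a median length of 141 bp and a range of 17 to 14770 bp. Their entries overlap: 502 names are each used by several entries (1027 genes), the members occupy 7569 distinct intervals, and these join into 6782 stretches that do not touch.

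The data are peak lists from chromatin immunoprecipitation with sequencing (ChIP-seq), in which DNA bound by a protein is recovered with an antibody and sequenced. There was 1 group, of 2 biological replicates of whole mid-embryos, 3.5 hours old. The strain, OP787, carries the integrated transgene wgIs787, in which T27A8.2 is fused to TY1, EGFP and 3xFLAG, and a working unc-119 copy in an unc-119(tm4063) background; an antibody against GFP was used. The labels name the target tab-1 while the genotype puts the tag on T27A8.2, which is another gene, and "labelled tab-1" is all that can be said of the samples. The protein measured is a tagged transgene product in a mix of all embryonic cells, the control experiment that the labels point to was not used here, and the read depth is unknown.

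A site is a peak of the authors' conservative list, the list of both replicates that passed their threshold on the irreproducible discovery rate (IDR), after merging overlapping peaks. The IDR estimates the share of peaks whose rank is not repeated between sets of peaks. A site is at a member when its summit lies inside the gene or within 200 bp of it. Summits within 200 bp of a tRNA, snoRNA, snRNA or miRNA gene, together called small RNA genes, were left out: 331 of 1266 sites, which leaves 935. Signal is the peak caller's value in the authors' units. Its scale is not stated, so levels are not compared between lists: replicate values are given side by side, and only the order of sites within a list is read from them.

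Unclassified non-coding RNA entries are a mixed collection. Some non-coding RNAs are made by RNA polymerase II and processed like messenger RNA, others by RNA polymerase III, which in tRNA genes starts from promoter elements inside the gene, the A box and the B box. The B box is bound by the factor TFIIIC, and its core reads GTTCGANTC in many tRNA genes. Antisense and long intergenic RNAs include regulators of neighbouring genes and of development, but for most entries in the worm no function is known.

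The sequences below reach 60 bp to either side of the summits of strong sites at members, shown because several carry a B box-like word and because 3 of them share a stretch of sequence. All were read from the plus strand of the RefSeq genome, build WBcel235 (the same assembly as ce11), 5′ to 3′. Capitals mark a match to GTTCNANNC, on either strand. This looser form of the B box core was chosen after the windows were seen.
C14F11.14 (chrX:6207804-6207924, signal 505): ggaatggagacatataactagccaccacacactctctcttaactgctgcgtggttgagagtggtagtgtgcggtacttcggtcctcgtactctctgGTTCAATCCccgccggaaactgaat
ZK816.8 and ZK816.9 (chrX:3348021-3348141, signal 253): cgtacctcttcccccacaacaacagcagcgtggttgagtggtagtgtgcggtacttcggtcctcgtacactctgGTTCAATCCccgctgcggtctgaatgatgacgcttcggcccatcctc
T22B2.9 and T22B2.12 (chrX:3914459-3914579, signal 126): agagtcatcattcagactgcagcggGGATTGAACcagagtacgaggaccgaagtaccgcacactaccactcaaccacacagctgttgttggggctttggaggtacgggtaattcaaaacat
T28D6.10, T28D6.13 and T28D6.15 (chrIII:11371404-11371524, signal 350): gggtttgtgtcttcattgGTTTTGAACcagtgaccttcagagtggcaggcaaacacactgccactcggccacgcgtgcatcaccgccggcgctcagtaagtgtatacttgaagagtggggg
K10H10.11 and K10H10.14 (chrII:14496975-14497095, signal 278): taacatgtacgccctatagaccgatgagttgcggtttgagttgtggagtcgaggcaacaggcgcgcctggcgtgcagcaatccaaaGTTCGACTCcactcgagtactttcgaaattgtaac

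The windows of W01D2.7 and F08G2.13 hold no such match. They share GGGTTANC, a word also chosen after they were seen, which capitals mark in the lines below, on either strand.
W01D2.7 (chrII:14804496-14804616, signal 248): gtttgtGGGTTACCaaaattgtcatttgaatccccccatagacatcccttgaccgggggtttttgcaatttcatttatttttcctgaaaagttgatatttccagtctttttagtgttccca
F08G2.13 (chrII:13834432-13834552, signal 244): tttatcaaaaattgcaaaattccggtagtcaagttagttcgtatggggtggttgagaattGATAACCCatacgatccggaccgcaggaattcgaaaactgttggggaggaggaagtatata

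Of the 8050 members, 190 (2.36%, 95% Wilson interval 2.05 to 2.72) had a site. The same rule called 577 of 19973 protein-coding genes (2.89%), 18 of 2128 pseudogenes (0.846%) and 3 of 15363 piRNA genes (0.0195%). Counted by gene, the members' share was thus below that of protein-coding genes, which are far longer. The interval covers counting error over genes only, and neighbouring genes can share a site. The 190 members, in 184 distinct intervals, were reached by 135 sites, which is 14.4% of the 935 sites away from small RNA genes (12.3 to 16.8). There were 90 sites at 1 member, 36 at 2 members and 9 at 3 or more.

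Per base, sites were denser at members than elsewhere. Within 200 bp of a member there were 135 sites in 3.70 Mb, or 36.5 per Mb. Farther away there were 800 sites in 95.9 Mb, or 8.34 per Mb, so that the ratio of the densities was 4.38. The lists of the single replicates were shorter and gave a ratio of 4.12 in replicate 1 and 4.41 in replicate 2. With 1 group and no control lists, no difference between members and other regions could be tested over samples, and the values are a description of these lists.

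The rise was confined to a narrow zone in the distance classes used. Inside the members the density was 64.2 sites per Mb, and from 1 to 200 bp away it was 20.5. Beyond 200 and up to 500 bp it was 9.59, beyond 500 and up to 1000 bp 8.17, and past 2000 bp 8.27. Protein-coding genes, which cover 62.5 Mb, had 6.93 sites per Mb inside, 24.8 from 1 to 200 bp away, 18.6 beyond 200 and up to 500 bp, and 9.48 past 2000 bp. They thus also had a rise, outside the gene and wider than that of the members. Pseudogenes had 4.36 sites per Mb inside them and 4.95 from 1 to 200 bp away. The bodies of piRNA genes held 0 sites in 0.255 Mb, and the 200 bp around them held 0.982 per Mb. In 87 of the 135 sites (64.4%) the summit lay inside a member. Of the 192 pairs of a site and a member, 106 had the summit inside the gene, 52 upstream and 34 downstream of it.

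**Figure D1:**
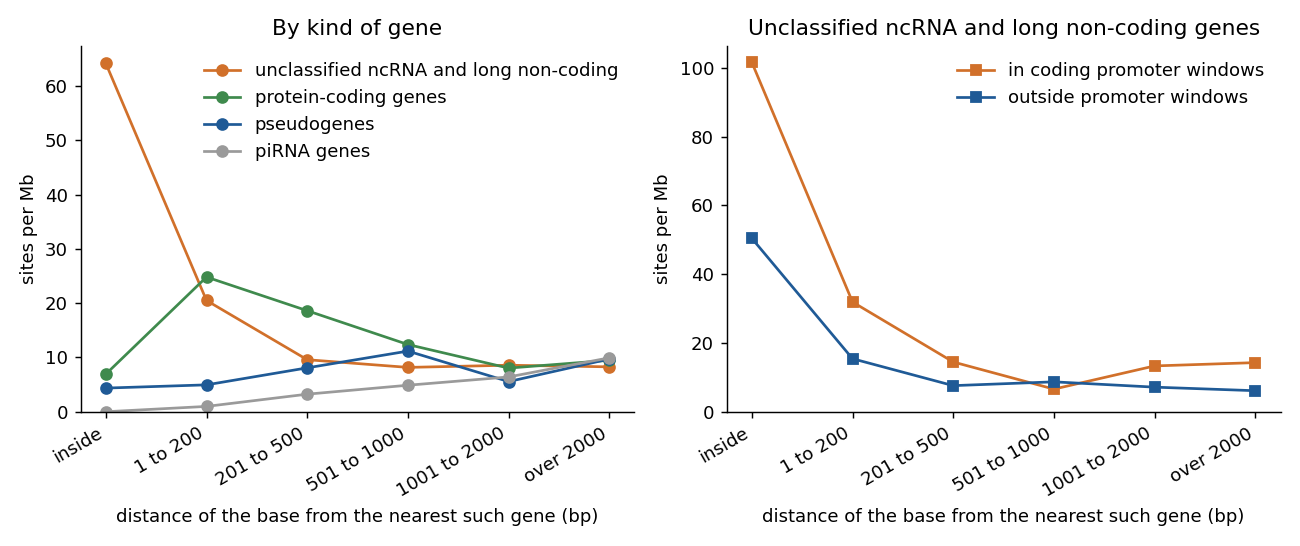
Sites per Mb of genome (y axis) by the distance of each base from the nearest gene of a kind (x axis, bp). The left panel shows members, protein-coding genes, pseudogenes and piRNA genes, and the right panel members with bases split by whether they lie in a protein-coding promoter window. Members reach 64.2 per Mb inside the gene and come down to 9.59 beyond 200 and up to 500 bp, with a like fall on both kinds of base.

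Many members lie beside protein-coding genes, whose promoters hold sites of their own. A promoter window spans 1000 bp upstream and 200 bp downstream of the start of any protein-coding transcript. Within these windows the density was 55.3 sites per Mb near members and 13.8 farther away, a ratio of 3.99. Outside them it was 28.7 and 6.39, a ratio of 4.49. The difference from other regions was thus present on both kinds of base.

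GC content moved with the sites. Sequence within 100 bp of summits at members had a mean GC content of 51.9%, against 48.2% at the other 800 sites and 41.3% at the midpoints of members without a site. Members beside small RNA genes are among these midpoints, although summits there were left out of the sites. Where the sequence within 100 bp of a base had under 35% GC, 0 sites lay near members in 1.36 Mb, and 34 lay farther away in 48.5 Mb (0.701 per Mb). From 35 to 40% GC the density near members, 3.16 per Mb from 3 sites, was about that farther away, 3.46. From 45 to 50% it was 92.5 against 33.2, and at 55% or more 891 against 224, from 43 and 147 sites. If bases near members had carried sites at the rates of bases of the same GC class farther away, they would have held 50.7 sites, and they held 135, which is 2.66 times as many. The ratio of 4.38 over all bases was therefore smaller once GC classes were matched.

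**Figure D2:**
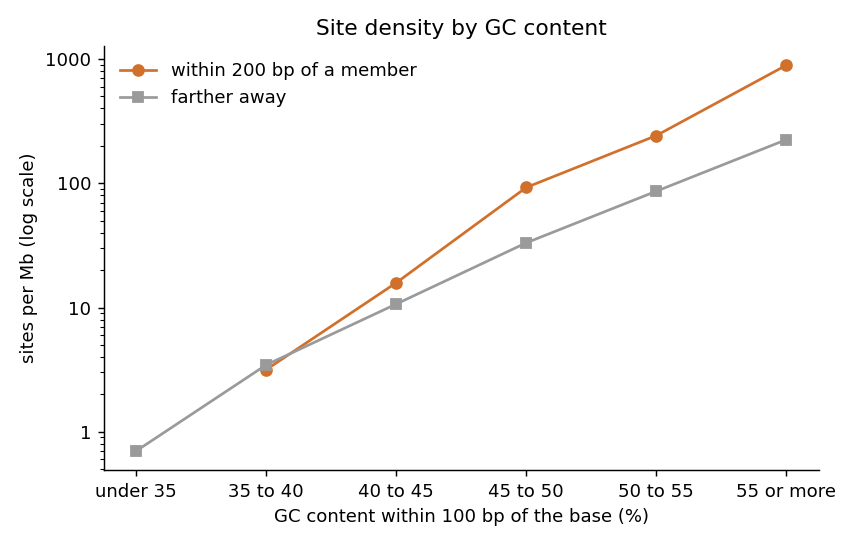
Sites per Mb (y axis, log scale) by the GC content within 100 bp of each base (x axis, %), for bases within 200 bp of a member and bases farther away. Both lines rise with GC content, and that of the members lies above the other from 40% GC on; the class under 35% holds 0 sites near members and has no point.

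The ranked candidates, which the authors listed before the threshold, showed a smaller difference. The windows around members make up 3.71% of the bases considered, 4.74% of the 94131 candidates away from small RNA genes and 14.4% of the sites. Of the 4461 candidates at members, 411 (9.21%) had a global IDR of 0.05 or less, against 3.44% of the 89670 elsewhere. At a global IDR of 0.01 or less these shares were 3.12% and 1.07%. A candidate of any rank lay at 4427 members (55%), and one with a global IDR of 0.05 or less at 528 (6.56%). That stricter share was 9.41% of protein-coding genes, 3.10% of pseudogenes and 0.0586% of piRNA genes.

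By biotype the shares of genes with a site could not be told apart. Genes of biotype ncRNA had one in 185 of 7756 (2.39%, 2.07 to 2.75). For lincRNA genes it was 3 of 194 (1.55%, 0.527 to 4.45) and for antisense genes 2 of 100, and both intervals hold the ncRNA share. Per base there were 37.0 sites per Mb within 200 bp of ncRNA genes, and 13.3 per Mb, from 6 sites, within 200 bp of lincRNA and antisense genes. Members of 200 bp to under 500 bp had the highest share of the length classes, 60 of 1423 (4.22%, 3.29 to 5.39). Those under 100 bp had the lowest, 26 of 2081 (1.25%, 0.854 to 1.82), and the 291 of 500 bp or more had 2.41% (1.17 to 4.88).

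Chromosome X held a larger part of the sites at members than of other sites. It carried 51 of the 135 (37.8%, 30 to 46.2), and 131 of the other 800 (16.4%, 14 to 19.1). X also carries 2565 of the members (31.9%), a share inside the first interval. In replicate 1's own list 11 of 30 sites at members (36.7%) and 32 of 189 other sites (16.9%) were on X, and in replicate 2's 28 of 61 (45.9%) and 64 of 359 (17.8%). By gene, 77 members on X had a site (3.00%, 2.41 to 3.74), while chromosome IV was lowest with 12 of 1106 (1.08%, 0.622 to 1.89). The 4 other chromosomes lay between 1.70% (V) and 2.88% (III).

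**Figure D3:**
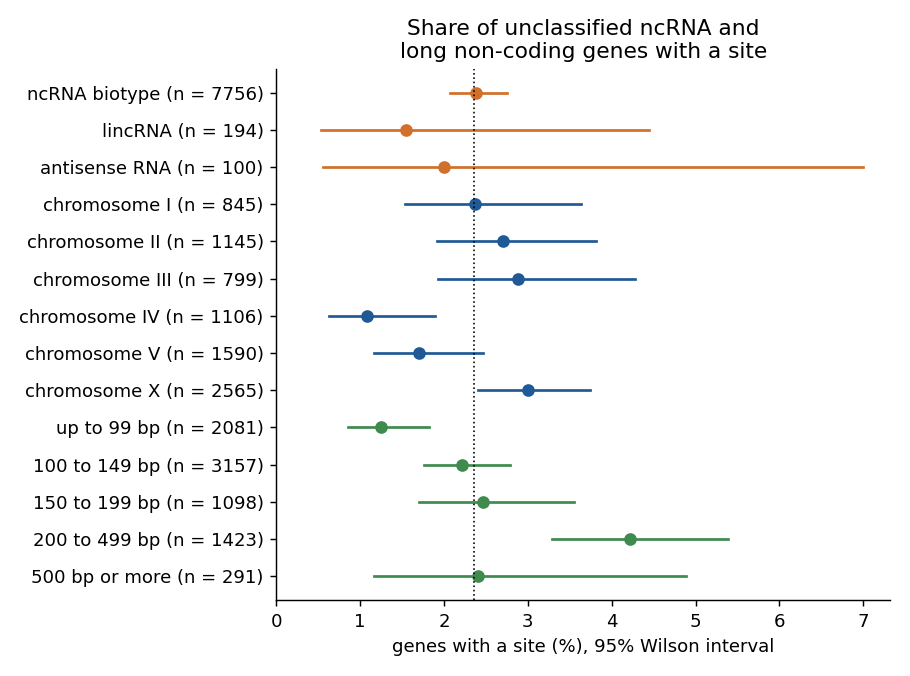
Share of members with a site (x axis, %) by biotype, chromosome and gene length, with the 95% Wilson interval as a line; the dotted line is the share of all members, 2.36%. Chromosome IV and genes under 100 bp lie below it and chromosome X and genes of 200 bp to under 500 bp above it with their whole interval. The intervals count members that share a site separately: on X 51 sites reached 77 members, and the lower end there, 2.41%, is close to the line.

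The share with a site also differed by position relative to coding genes. Of members that touch a promoter window, 93 of 2615 (3.56%) had a site, against 97 of 5435 (1.78%) that touch none. Sites farther from members were likewise denser in promoter windows, 13.8 per Mb against 6.39 outside them. Members that overlap no protein-coding gene had a site in 129 of 4358 (2.96%). Those that overlap one on the opposite strand had one in 40 of 2529 (1.58%) and those on the same strand in 21 of 1114 (1.89%). Of the 49 that overlap coding genes on both strands 0 had a site. Seen by site, 60 of the 135 summits lay in a promoter window (44.4%), 29 in a protein-coding gene outside promoters and 46 in neither. For the other 800 sites the numbers were 347 (43.4%), 271 and 182. Summits in coding genes outside promoters lay almost always in introns, 28 of 29 at members. Of the 271 other sites of that kind, 177 lay in no exon and 84 in coding sequence. How much of the sequence near members is intronic was not counted, and the part of the annotation in this difference was not tested.

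Most sites at members were of ordinary strength, with a short tail of strong ones. Their signal ran from 62.9 to 505 with a median of 86.9 (quartiles 80.0 and 102). The other 800 sites had a median of 87.3, and the 331 small RNA gene sites 183. Only 9 sites at members exceeded 200, and all 9 were narrower than the 304 bp that 122 of the 135 sites measure. These 9 stood among the 50 strongest of the 935 sites (18%), while none of the next 50 was at a member. The share was 11% in the 100 ranks after these, highest at 21.5% past rank 400 and up to rank 600, and 9.63% in the last 135 ranks. Sites at members in neither a promoter nor a coding gene reached 133 at most, and the 7 strongest of those in promoters exceeded 200.

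**Figure D4:**
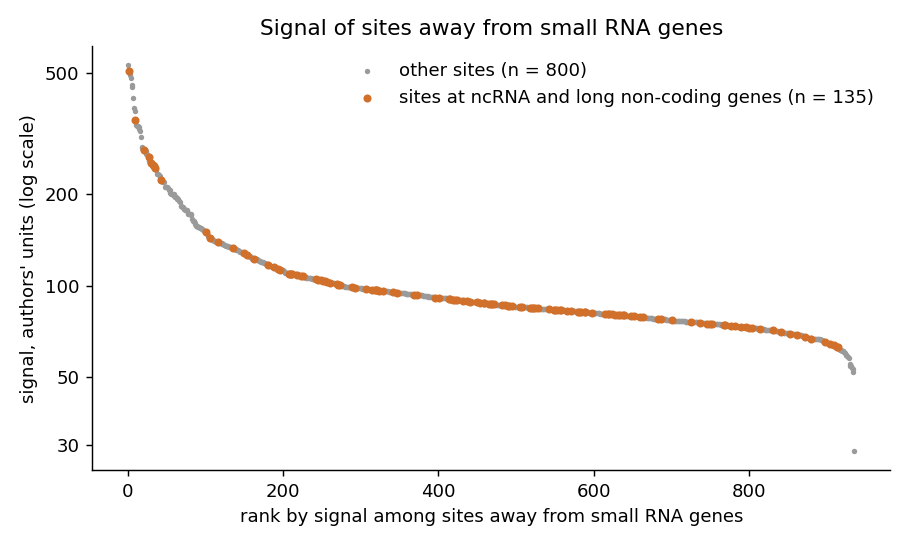
Signal in the authors' units (y axis, log scale) against rank within the 935 sites kept (x axis); orange points are the 135 sites at members and grey points the other 800. Members take 9 of the first 50 ranks and 0 of the next 50, and are spread through the rest.

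The strongest site at a member was at C14F11.14, a gene of 147 bp on the plus strand of X (chrX:6207835-6207981). Its summit lay inside the gene and 177 bp from the 5′ end of the protein-coding gene T13C5.6. The signal was 505, rank 2 of the 935 sites, with 233 in replicate 1 and 271 in replicate 2. Replicate values here and below are those of the overlapping candidate in each replicate's own ranked list. The second strongest, at T28D6.10, T28D6.13 and T28D6.15 on III, had a signal of 350, with 153 and 199 in the replicates. It lay in an intron of tba-7, an alpha-tubulin gene. Both sites were in the own lists of both replicates.

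The sites at C14F11.14, at ZK816.8 and ZK816.9 and at T22B2.9 and T22B2.12 shared sequence, as the windows printed above show. A run of 33 bp common to the 3 windows occurred 3 times in the nuclear genome, all on X and each within one of these sites. It reads as follows.
shared run (WBcel235, chrX:6207861-6207893, plus strand): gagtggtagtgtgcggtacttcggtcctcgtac
The other copies lay at chrX:3348056-3348088 on the plus strand and chrX:3914497-3914529 on the minus strand. Runs of 30 bp from within 100 bp of these summits were found at 5 places in the nuclear genome, 3 with a site and 2 without, all on X. At the fourth place lies K02D3.5, a member annotated on both strands. It differs from the 33 bp run by 1 base and also has a match to GTTCNANNC within 100 bp. It had no site, and its candidate had a signal of 23.3 and a global IDR of 0.734. The last place (chrX:11889888-11890190) has no gene within 200 bp, no site and no candidate. Each of the 3 copies had a member on its own strand, C14F11.14, ZK816.9 and T22B2.12. Beside ZK816.9 and T22B2.12 a member also lay on the opposite strand, ZK816.8 and T22B2.9. Each copy was followed by the B box-like word GTTCAATCC. The signals at the 3 copies were 505, 253 and 126. Replicate 1 gave 233, 143 and 77.2, and replicate 2 gave 271, 113 and 55, so the order of the 3 was the same in both. The site at T22B2.9 appeared in the own list of replicate 1 and was missing from that of replicate 2. Near-identical copies can receive each other's reads, and how the authors treated such reads is not given in the sources used here. Runs of 30 bp found elsewhere in the genome were in 19 of the 135 windows and in none of the other 116.

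Among the other strong sites, 6 had a signal between 223 and 278, and 5 of these lay in coding promoters. That at K10H10.11 and K10H10.14 on II had a signal of 278, with 117 in replicate 1 and 162 in replicate 2. It lay in the promoter window of dhs-8, a short-chain dehydrogenase gene, with the summit 991 bp from the 5′ end of dhs-8. The site at W01D2.7 on II had a signal of 248, with 107 in replicate 1 and 105 in replicate 2, in the promoter window of W01D2.3. A further site in the same promoter window, at W01D2.9, had a signal of 139, with 37.7 and 64.4. At F31F7.5, F31F7.6 and F31F7.8 on V, in the promoter window of the kinase gene mrck-1, it was 247 with 111 and 123. F08G2.13 on II had a signal of 244, with 73.9 in replicate 1 and 179 in replicate 2. Its summit lay in the promoter window of F08G2.5, 861 bp from the 5′ end of that gene. F57B10.17 on I (223; 85.0 and 139) lay in the promoter windows of dad-1, which encodes a subunit of the oligosaccharyltransferase, and of tre-1, a trehalase gene. The sixth of these sites, at R144.16 on III (265, with 122 and 104), lay in an intron of the kinesin gene klp-6. It was within 200 bp of a signal recognition particle RNA gene, a kind the rule leaves out. Of the 172 runs of 30 bp within 100 bp of its summit, 101 (58.7%) occurred more than once in the genome, up to 4 times. The caution on reads from copies given above applies to this site too. In all 9 sites with a signal over 200 both replicates' own lists held the site.

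Below these came sites with a signal between 113 and 150. W02F12.11 on V (150) lay in the promoter window of dlst-1, which encodes a subunit of a tricarboxylic acid cycle complex. R03G5.8 on X (144) lay in that of eef-1A.2, a translation elongation factor gene, and ZK20.8 on II (128) in that of din-1, whose product binds the nuclear receptor DAF-12. C24G6.10 on V (114) lay 5 bp from a summit in the promoter windows of nhr-47, a nuclear receptor gene, and of dnj-19, a chaperone gene. W06F12.7 on III (123) lay beside a summit in an intron of lit-1, a kinase gene of the Wnt pathway. The replicates' values for W06F12.7 were 73.6 and 38.0, and for R03G5.8 they were 65.2 and 81.4.

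The strongest sites inside a member and away from every coding gene and promoter were weaker. C30E1.9 on X, the longest member at 14770 bp, had 2 sites, 172 bp (signal 133) and 14317 bp (86.9) from its 5′ end. It was followed by T22B2.9 (126), the lincRNA gene linc-91 (117), C46C11.5 on X (115) and the trio C25F6.10, C25F6.12 and C25F6.15 on X (113). The values in replicates 1 and 2 were 59.8 and 84.9 for the stronger site of C30E1.9, 56.7 and 56.2 for C46C11.5, and 57.7 and 46.3 for C25F6.10. C30E1.9 and linc-91 were the 2 members with 2 sites each. The site that touched most members, 5 of them (Y47D3B.15, Y47D3B.16, Y47D3B.20, Y47D3B.23 and Y47D3B.24 on III), had a signal of 90.6.

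Long non-coding genes were reached by 6 sites, none of them above 117. On chromosome I linc-91, a gene of 3257 bp, had sites of signal 117 and 67.8, 1789 and 1148 bp from its 5′ end. The stronger had 50.2 in replicate 1 and 51.9 in replicate 2, and was in neither replicate's own list. Also on I, linc-39 had a site of signal 80.2 and the antisense gene F48C1.15, inside let-526, one of 87.8. On V, the antisense gene anr-36 had 82.7 and linc-128 had 69.6. Of the genes named linc-, 3 of 170 had a site and 106 a candidate of any rank. For those named anr- it was 1 of 57, with 33 holding a candidate. None of 3 well-studied long non-coding genes had a site. rncs-1, whose RNA binds Dicer and rises on starvation, had a strongest candidate of signal 29.0 (global IDR 0.224). For tts-1, whose RNA associates with ribosomes and acts in long-lived mutants, it was 40.2 (0.329), and for lep-5, which times larval development through LIN-28, 18.8 (0.339).

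The replicates' own lists held the strong sites at members and few of the weak ones. These lists are shorter than the conservative list, with 219 and 420 sites away from small RNA genes against 935. Absence from them therefore does not show that a site was not repeated. Of the 135 sites, 27 (20%) were in replicate 1's own list, 42 (31.1%) in replicate 2's, 17 (12.6%) in both and 83 (61.5%) in neither. For the other 800 sites, 14.6% were in both and 61.9% in neither. The 17 had a median signal of 223 and the 83 a median of 82.1. An overlapping candidate was present in both replicates' ranked lists for 133 sites. Across the 133 sites the Pearson correlation of the signals was 0.83 and the Spearman correlation 0.09. Without the 9 strongest sites (n = 124) these were 0.04 and -0.13. The Pearson correlation over all 133 sites thus depended on those 9. They were taken out by their signal, which can by itself lower the correlation of the rest. All these values are descriptions: sites entered the list through both replicates' ranks, which shapes the relation among weak ones. For the 787 other sites, none of them taken out by signal, the Pearson and Spearman correlations were 0.81 and 0.29.

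**Figure D5:**
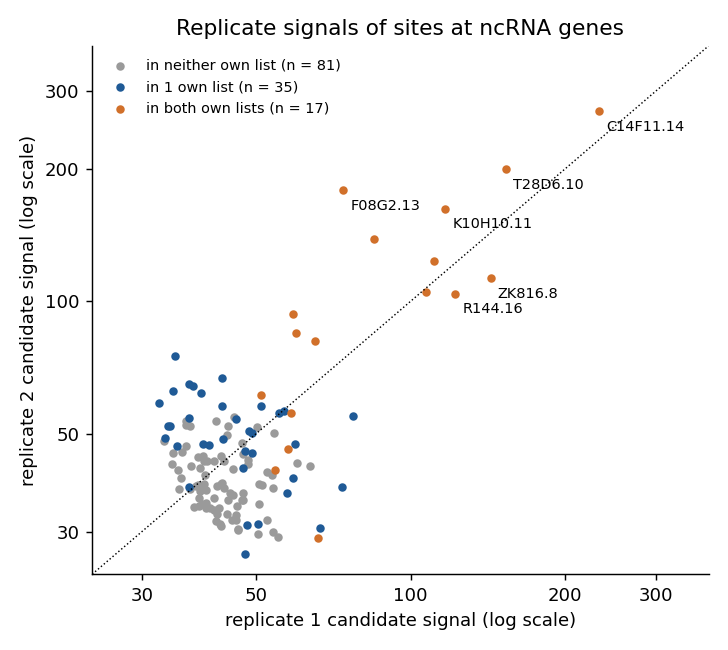
Candidate signal in replicate 1 (x axis) and replicate 2 (y axis), both on log scales in the authors' units, for the 133 sites at members with a candidate in both replicates; colours give the own lists that hold the site, and the dotted line marks equal numbers, on scales that may differ. The 9 strongest sites stand apart from the rest at the upper right, and the others form a cloud without a trend.

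Each replicate's own list gave a similar share of sites at members, at lower numbers. Replicate 1's held 30 sites at 42 members (13.7% of its 219 sites away from small RNA genes), and replicate 2's 61 sites at 87 members (14.5% of 420). They shared 18 sites, which is 60% of the first and 29.5% of the second. In promoter windows lay 16 of the 30 (53.3%) and 36 of the 61 (59.0%), against 44.4% in the conservative list. For the other sites of the own lists these shares were 51.9% in replicate 1 and 58.8% in replicate 2. The strongest site that the other list lacked was at T22B2.9 and T22B2.12 in replicate 1 (77.2), and at C54H2.10 and C54H2.11 on X in replicate 2 (75). Both were in the conservative list.

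Candidates at members that missed the conservative list were mostly weak, 4297 in number, of which 270 had a global IDR of 0.05 or less and 1 passed the score of the list. The strongest were at Y38C1AA.16 on IV (signal 112, global IDR 0.173) and H37A05.5 on V (109, 0.0917). Next came F52D10.7, F52D10.11 and F52D10.12 on X (91.7, 0.0269), K03H9.7 on II (90.5, 0.0155) and T10B5.13 on V (90.5, 0.0111). Their signals lay above the median of the sites at members, 86.9, so signal alone does not separate sites from candidates.

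Short DNA words were counted on both strands within 100 bp of each summit. GAGAGA was in 34.8% of the 135 windows at members and in 22.8% of the other 800, with 23.3% at the midpoints of members that had no site. For GCGCGC the shares were 20%, 13.3% and 3.99%, and for CCGCCC 18.5%, 14.8% and 7.95%. The run TTTTT is the kind of stretch at which RNA polymerase III stops. It was in 48.9% at members and 63.4% at other sites, against 92.0% at the 250 tRNA gene sites. At the midpoints of members without a site it was in 79.5%, more than in either group of sites. Members beside small RNA genes were kept among the 7852 midpoints, and their part in the midpoint shares was not tested. Among the 9 strongest sites at members 8 windows held TTTTT, and 58 of the other 126 did (46.0%). TAATTA, which many homeodomains bind, was in 6.67%, 5.63% of other sites and 6.07% of the midpoints. Windows at members were richer in GC than the others, which touches every one of these shares, and its part in them was not tested.

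The words of tRNA promoters were not frequent at members as a whole. GTTCGANTC was in 3 of the 135 windows (2.22%), in 1.5% of other sites, 44.8% of tRNA gene sites and 10.5% of all 1266 sites. Its part GTTCGA was in 7.41%, 8%, 73.2% and 22.1%. The A box-like TGGCNNAGT was in 1.48% at members, 6.13% at other sites, 11.6% at tRNA gene sites and 7.50% of all. At the midpoints of members without a site the shares of these 3 words were 3.04%, 10.4% and 2.37%, each above that at members with a site. The looser GTTCNANNC, which also matches every GTTCGANTC, was in 17 windows at members (12.6%) and in 10.6% of other sites. It was in 94.4% of tRNA gene sites, 29.1% of all and 10.8% of the midpoints of members without a site. Of the 8050 members 378 lie within 200 bp of a tRNA gene, and such members were not taken out of the midpoints. GTTCNANNC was in 4 of the 9 strongest windows, those at C14F11.14, T28D6.10, K10H10.11 and ZK816.8, and in 13 of the rest (10.3%). GGGTTANC was in 4 windows at members (2.96%), 3 of them among the 12 strongest sites (W01D2.7, W01D2.9 and F08G2.13), in 0.625% of other sites and 1.03% of all. Both words were picked from these windows, so their shares there are descriptions.

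Members also lie among the small RNA genes whose sites were left out. Of the 8050, 547 (6.80%) were within 200 bp of a small RNA gene, 378 of them near a tRNA gene, and 471 overlapped one. Of the 331 small RNA gene sites, 179 (54.1%) had a member within 200 bp, and 204 members had such a site. Peaks of this width cannot tell overlapping genes apart, so these 204 are not counted among the members with a site.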

How the data were processed

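The authors deposited peak lists on the ce11 build: for each replicate and for both together, ranked candidates and a list past an IDR threshold. For the aligner, peak caller, mapping filters and read depth, the sources used here give nothing. A high deposited score means a low IDR. The deposited signal is the peak caller's value per peak. Ranked lists deposited by the authors add the −log10 of the global IDR; these meanings were read from the values. In the ranked list of both replicates 8 further columns have no names and were not used. Chromosome lengths of WBcel235 (RefSeq sequence, Ensembl release 115 genes) were compared with the peak ends, and no candidate ended beyond its chromosome.

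Peaks overlapping by 1 bp or more were merged, keeping the strongest summit and signal. Summits were matched to genes, and bases, promoter windows and GC classes were counted, with Python 3.11.15, pandas 2.3.3, numpy 2.4.6 and SciPy 1.17.1. The interval functions were tested on simulated data. Intervals (95%, Wilson) reflect the number of genes or sites and nothing else. No test over samples was possible with 1 group.

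Named genes are those at the 20 strongest sites at members, all long non-coding members with a site, named families, the strongest sites away from coding genes, members with most sites, sites with most members, the 5 strongest candidates outside the list and the strongest unshared site of each replicate. Members and lists were chosen with earlier results of these data known.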

Additional observations from a re-analysis of the deposited data

How the results depend on the processing

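No paired analysis was possible because there was 1 group. Against 190 members, 135 sites, a median signal of 86.9, 75 sites outside coding promoters and a density ratio of 4.38, the alternatives gave the following. With the summit inside the gene only there were 104 members, 87 sites and a ratio of 7.44. With 100 bp and 500 bp in place of 200 bp the ratio was 5.74 and 2.86. With a score of 1000 there were 101 members, 70 sites, 33 outside promoters and a median of 98.0. Keeping summits near small RNA genes gave 394 members, 314 sites, 207 outside promoters, a median of 116 and a ratio of 8.08. The authors' other thresholded list gave a ratio of 4.16, and candidates at a global IDR of 0.01 or less gave 3.84. Leaving out 1 replicate, by taking the other's own list, gave 42 to 87 members and 30 to 61 sites. There were 14 to 25 sites outside promoters, and ratios of 4.12 to 4.41. The lower counts were those of replicate 1's list, which is the shorter. Median signals, 53.9 to 65.3, are on the scales of those lists and cannot be compared with 86.9. The ratio was above 1 under all 12 alternatives run for it, from 2.86 to 8.08. These are not independent, since all use the same genes. In 7 of them the ratio differed from 4.38 by more than 0.205, the standard deviation of the values from the 2 replicates' own lists. The ratio was chosen after the data were seen. Counts stayed within 1.5 times the main count under the other alternatives, which were 100 bp, 500 bp, the authors' other list, an IDR of 0.01, wider exclusions, unmerged peaks, any overlap, 1 entry per interval and a shorter promoter window. Read depth is unknown, so absence from a list does not show absence of binding.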
